A study of Homo sapiens with 16 samples.

Results

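The genes described here were the sensors of foreign or misplaced nucleic acid and the adaptors that carry their signal, 10 genes chosen by symbol from the 23354 genes of the count table. They were the RIG-I-like receptors DDX58 (RIG-I), IFIH1 (MDA5) and DHX58 (LGP2) with their adaptor MAVS, the cytosolic DNA sensor MB21D1 (cGAS) with its adaptor TMEM173 (STING), the endosomal Toll-like receptors TLR3, TLR7 and TLR9, and the exonuclease TREX1. RNA-seq after ribosomal RNA depletion had been run on 2 human multiple myeloma cell lines, the glucocorticoid-sensitive MM1S and the glucocorticoid-resistant MM1R, the latter derived from the former and described in the study as lacking the glucocorticoid receptor. Cells of each line were kept for 48 h in vehicle (Veh), in TAK-981 at 0.1 μM (TAK), in the glucocorticoid dexamethasone at 1 μM (Dex), or in both drugs at these doses (combo). TAK-981 inhibits the E1 enzyme that starts SUMO conjugation. This made 8 groups of 2 libraries. Each phenotype was represented by 1 cell line, so glucocorticoid resistance cannot be told apart from other differences between MM1S and MM1R. The libraries were labelled as duplicates with no word on separate cultures, so the p-values measure the spread between these duplicates, which may be technical.

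As background, cells watch for nucleic acids in places where their own are scarce. RIG-I and MDA5 bind double-stranded RNA in the cytoplasm and signal through MAVS on mitochondria, while cGAS binds DNA there and makes a cyclic dinucleotide that activates STING on the endoplasmic reticulum. TLR3, TLR7 and TLR9 sense double-stranded RNA, single-stranded RNA and DNA rich in CpG in endosomes, and TLR7 and TLR9 are the ones best known from B cells, the lineage of plasma cells. All these routes end in kinases and interferon regulatory factors that switch on type I interferon. Several of the sensors are themselves interferon-stimulated genes.

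The 16 libraries held between 15707587 and 24796539 counts. All 10 plasma cell markers checked were tested in the fit, with a summed level of 5040 to 8840 CPM (counts per 1000000 reads of the scaled library size) in MM1S and 9670 to 11400 in MM1R. The summed B cell, T cell, myeloid, plasmacytoid dendritic cell and stromal markers reached at most 5.76 CPM. Among these, the summed B cell markers reached at most 0.557 CPM. CD3D, CLEC4C and IL3RA had 0 counts in every library. All 10 sensors and adaptors passed the filter on low counts. In both lines 3 of them were counted thinly, at 13 to 60 reads a library for TLR9, 8 to 105 for TLR3 and 5 to 18 for TREX1. TMEM173 was thin in MM1S alone, at 8 to 27 reads a library. A gene was called higher or lower at a Benjamini-Hochberg adjusted p under 0.05 over all 14215 genes tested, from edgeR's quasi-likelihood F test.

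Per kilobase of transcript, which allows levels to be compared between genes, cGAS, MAVS and MDA5 were the leading transcripts under vehicle. In MM1S vehicle cells MB21D1 stood at 21.1 ± 1.17 CPM per kb (SD, n = 2), MAVS at 19.7 ± 0.483 and IFIH1 at 17.6 ± 1.29. TLR7 followed at 8.46 ± 0.369 CPM per kb, DDX58 at 2.49 ± 0.0863 and DHX58 at 0.909 ± 0.225. The remaining 4 reached at most 0.585 CPM per kb in a vehicle library of MM1S, and among them TMEM173 (0.458 ± 0.18) overlapped TLR3 (0.316 ± 0.0298), and TREX1 (0.219 ± 0.049) overlapped TLR9 (0.17 ± 0.0422). In MM1R vehicle cells the same 4 genes led, with MB21D1 at 22.9 ± 0.127, MAVS at 19.8 ± 0.0907, IFIH1 at 19.4 ± 0.399 and TLR7 at 7.03 ± 0.162 CPM per kb. TMEM173 came next there, at 3.97 ± 0.426 CPM per kb, above DDX58 at 1.85 ± 0.239. After TAK-981, IFIH1 was the highest of the 10 in both lines, at 37.0 ± 2.32 CPM per kb in MM1S and 48.5 ± 2.28 in MM1R.

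**Figure D1:**
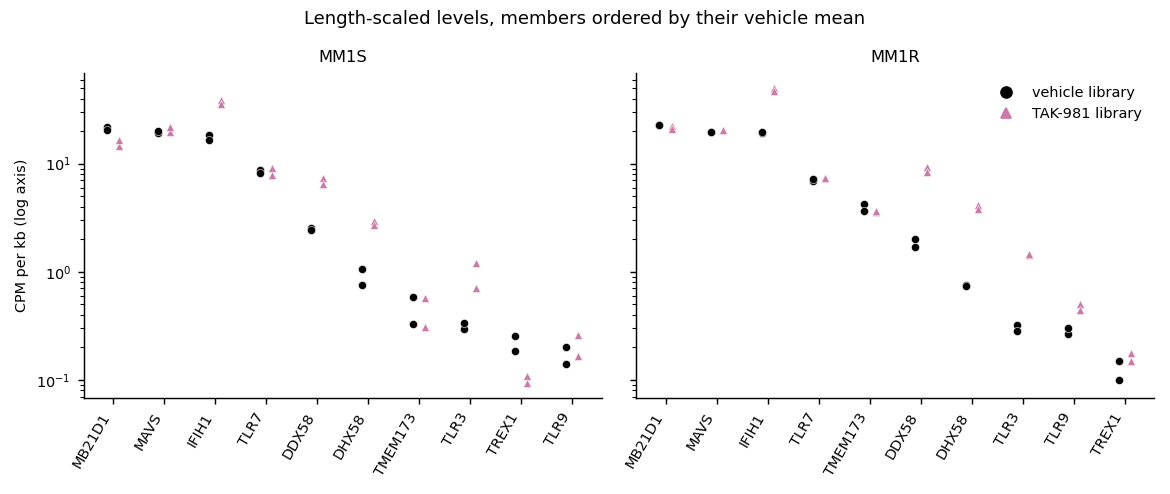
Level of each gene in CPM per kb of transcript (log axis) in the vehicle libraries (black circles) and TAK-981 libraries (pink triangles) of MM1S (left) and MM1R (right), 2 libraries a group, ordered by the vehicle mean. IFIH1 moved from the third place to the first in both lines, and TMEM173 stood above DDX58 and DHX58 under vehicle in MM1R but below both in MM1S.

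The first question was what inhibition of SUMOylation did to these genes. The 3 RIG-I-like receptors and TLR3 were higher after TAK-981 in both lines, by 2.1-fold to 3.11-fold in MM1S and by 2.51-fold to 5.33-fold in MM1R, and none of the other members was called in the same direction in both. In MM1S 4 of the 10 genes were called higher and 2 lower (MB21D1 and TREX1), where 25.2% of all tested genes were called higher and 23.7% lower. In MM1R 5 were called higher (the same 4 and TLR9) and 0 lower, where 25.8% of all tested genes were called higher and 27.6% lower. Across the 10 genes the median was 0.20 on the log2 scale in MM1S and 0.56 in MM1R, beside 0.037 and 0.0043 over all tested genes. These were bulk libraries, so fewer cells with a transcript and less of it per cell cannot be told apart.

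**Figure D2:**
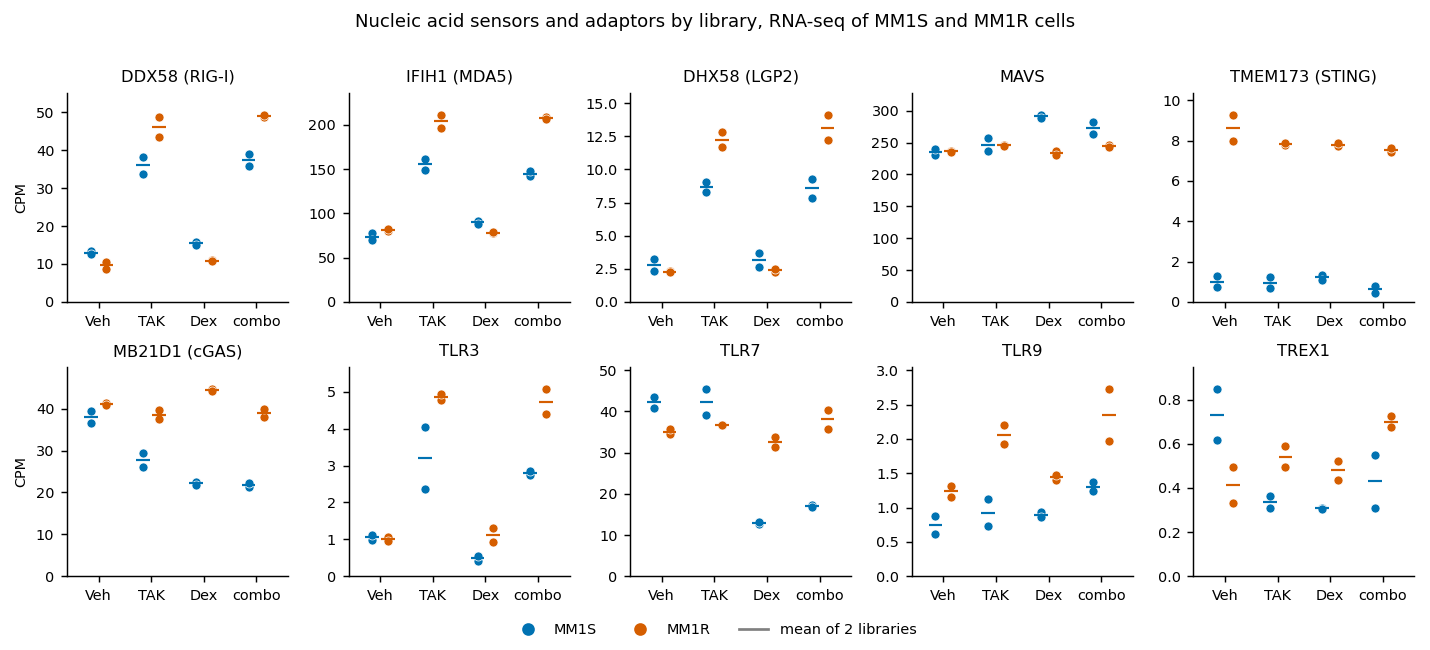
Level of each of the 10 genes in CPM (linear axes from 0) by treatment, with 1 point per library and a bar at the mean of the 2 libraries, MM1S in blue and MM1R in orange. DDX58, IFIH1, DHX58 and TLR3 stood higher in the TAK and combo libraries than in the Veh and Dex libraries of both lines, TLR7 and MB21D1 were low in the MM1S libraries that received Dex, and TMEM173 separated the lines.

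DDX58 encodes RIG-I, a helicase that recognises short double-stranded RNA with a triphosphate end (hg19 chr9:32455300-32526322, minus strand, 5205 bases of exon in the table). Its level in MM1S was 13.3 and 12.7 CPM under vehicle and 38.1 and 33.8 CPM under TAK-981. In MM1R it was 10.5 and 8.74 CPM under vehicle and 48.8 and 43.5 CPM under TAK-981. The treated libraries lay above the vehicle libraries in both lines, and the MM1R line went from the lower start to the higher end. The log2 fold change was 1.47 (SE 0.0992, adjusted p = 7.81e-10) in MM1S and 2.26 (SE 0.0995, adjusted p = 3.15e-12) in MM1R, a 2.77-fold and a 4.79-fold rise.

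IFIH1 encodes MDA5, a helicase for long double-stranded RNA (hg19 chr2:163123589-163175218, minus strand, 4202 bases of exon). It read 77.7 and 70.0 CPM under vehicle and 162 and 149 CPM under TAK-981 in MM1S, and 80.2 and 82.5 against 211 and 197 CPM in MM1R. The groups did not overlap in either line. Its log2 fold change was 1.07 (SE 0.0665, adjusted p = 2.52e-10) in MM1S and 1.33 (SE 0.0658, adjusted p = 1.83e-11) in MM1R, the smallest among the 4 genes that rose in both lines.

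DHX58 encodes LGP2, which has the helicase but not the signalling domains of the other receptors and tunes their response (hg19 chr17:40253422-40264751, minus strand, 3070 bases of exon). It stood at 2.3 and 3.28 CPM under vehicle and 9.03 and 8.29 CPM under TAK-981 in MM1S, and at 2.32 and 2.27 against 12.8 and 11.7 CPM in MM1R. The treated and vehicle libraries were apart in both lines. Its log2 fold change was 1.64 (SE 0.175, adjusted p = 3.41e-07) in MM1S and 2.41 (SE 0.166, adjusted p = 1.4e-09) in MM1R.

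TLR3, the endosomal receptor for double-stranded RNA (hg19 chr4:186990309-187006252, plus strand, 3342 bases of exon), moved with the cytoplasmic RNA sensors, from a much lower level. Its counts were 21 and 22 under vehicle and 78 and 46 under TAK-981 in MM1S, and 26 and 23 against 89 and 100 in MM1R. In CPM, the MM1S TAK libraries read 4.05 and 2.37, which were further apart relative to their mean than those of the other genes that rose, and the MM1R TAK libraries 4.78 and 4.93. The log2 fold change was 1.60 (SE 0.267, adjusted p = 7.03e-05) in MM1S and 2.26 (adjusted p = 3.74e-07) in MM1R. Without the first MM1S TAK library the value in MM1S was 1.16, and the call remained.

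Promoter windows, 250 bases before to 50 bases after the start of the gene, were in the RefSeq table used here (GRCh38.p14) for 6 of the 10 genes, namely DDX58 (listed as RIGI), IFIH1, MAVS, TLR3, TLR9 and TREX1. The windows of the 3 genes that rose in both lines and had an entry are shown because these genes moved together. Each window is read on the strand of its gene, 5′ to 3′, and capitals mark matches on either strand to GAAANNGAA, the core of the interferon-stimulated response element.
DDX58 (GRCh38.p14 chr9:32526147-32526446, minus strand): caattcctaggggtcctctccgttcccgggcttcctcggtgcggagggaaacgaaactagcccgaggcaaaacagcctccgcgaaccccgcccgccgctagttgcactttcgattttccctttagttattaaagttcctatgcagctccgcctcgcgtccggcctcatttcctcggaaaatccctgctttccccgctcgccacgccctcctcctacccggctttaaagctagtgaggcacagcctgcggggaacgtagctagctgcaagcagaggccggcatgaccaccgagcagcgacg
IFIH1 (GRCh38.p14 chr2:162318635-162318934, minus strand): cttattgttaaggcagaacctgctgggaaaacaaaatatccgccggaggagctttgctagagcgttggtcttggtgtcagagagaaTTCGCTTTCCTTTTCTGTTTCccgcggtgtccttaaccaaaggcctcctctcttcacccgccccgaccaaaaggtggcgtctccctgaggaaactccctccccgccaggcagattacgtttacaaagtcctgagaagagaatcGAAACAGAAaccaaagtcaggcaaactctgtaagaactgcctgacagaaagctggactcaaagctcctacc
TLR3 (GRCh38.p14 chr4:186068906-186069205, plus strand): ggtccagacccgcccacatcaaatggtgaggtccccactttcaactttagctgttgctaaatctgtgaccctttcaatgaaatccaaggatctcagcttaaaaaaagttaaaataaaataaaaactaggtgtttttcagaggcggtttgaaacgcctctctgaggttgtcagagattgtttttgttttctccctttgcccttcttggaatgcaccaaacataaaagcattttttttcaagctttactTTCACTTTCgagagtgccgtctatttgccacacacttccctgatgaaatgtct
The IFIH1 window held 4 matches, of which 3 overlapped each other on the opposite strand, from base -164 to base -144 before the start, and 1 lay on the same strand from -21 to -13. The TLR3 window held 1 match, on the opposite strand from base -3 to base 6. The DDX58 window held 0 matches, as did those of MAVS, TLR9 and TREX1, and 8.11% of the 35116 windows in the table held at least 1. The pattern fixes the spacing between GAAA and GAA, so elements with another spacing were not counted. A second interferon motif, the gamma-activated site TTCNNNGAA, matched 2 times in the TLR3 window, from -178 to -170 and from -50 to -42, sharing 0 bases with the match above, and in 0 of the other 5 windows, against 7.66% of all windows. The core of the glucocorticoid response element, ACANNNTGT, and the E-box CACGTG matched 0 of the 6 windows, against 5.37% and 7.26% of all windows. TLR7 and MB21D1, which fell after Dex in MM1S as described below, had no window and were not searched.

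MAVS, the adaptor that RIG-I and MDA5 share (hg19 chr20:3827446-3856770, plus strand, 11923 bases of exon), was not called after TAK-981. It read 231 and 240 CPM under vehicle and 236 and 257 CPM under TAK-981 in MM1S, and 237 and 235 against 246 and 245 CPM in MM1R. The log2 fold change was 0.067 in MM1S (95% confidence interval -0.0533 to 0.187, adjusted p = 0.356) and 0.056 in MM1R (95% confidence interval -0.0636 to 0.176, adjusted p = 0.427). With 4266 to 5724 reads a library, MAVS had the highest counts and the narrowest interval among the 10 genes in both lines.

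In the DNA-sensing branch, MB21D1, which encodes cGAS (hg19 chr6:74134856-74162043, minus strand, 1797 bases of exon), read 39.5 and 36.5 CPM under vehicle and 26.2 and 29.5 CPM under TAK-981 in MM1S. In MM1R it read 41.3 and 41.0 CPM against 39.7 and 37.5 CPM. The groups were apart in both lines, but only the fall in MM1S passed the test, with a log2 fold change of -0.45 (SE 0.0777, adjusted p = 0.000104) beside -0.095 (95% confidence interval -0.251 to 0.0617, adjusted p = 0.298) in MM1R.

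TMEM173, which encodes STING (hg19 chr5:138855113-138862343, minus strand, 2167 bases of exon), was nearly silent in MM1S, with 27 and 14 counts under vehicle and 13 and 24 under TAK-981. In MM1R it had 224 and 193 counts under vehicle and 145 and 160 under TAK-981. The TAK-981 and vehicle libraries overlapped in MM1S, and the log2 fold change was -0.071 there (95% confidence interval -0.789 to 0.647) and -0.14 in MM1R, neither called. The sign in MM1S turned without the first vehicle library (0.41) and without the first TAK library (0.30).

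TREX1, an exonuclease that clears cytosolic DNA (hg19 chr3:48501186-48509044, plus strand, 3329 bases of exon), had the fewest reads. It held 18 and 12 counts under vehicle and 7 and 6 under TAK-981 in MM1S, and 12 and 8 against 11 and 10 in MM1R. The log2 fold change was -1.12 in MM1S (SE 0.406, adjusted p = 0.0311) and 0.38 in MM1R (adjusted p = 0.483). The MM1S call was lost without the first vehicle library (-0.86, adjusted p = 0.239), without the first TAK library (-1.23, adjusted p = 0.0728) and without the second TAK library (-1.01, adjusted p = 0.135), and also with DESeq2 (adjusted p = 0.17), with no filter on low counts (adjusted p = 0.078) and in a fit of the MM1S libraries alone (adjusted p = 0.0534). The span of TREX1 in the table overlaps that of ATRIP on the same strand, and how reads in the overlap were assigned was not given in the sources used here, so its counts are uncertain.

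The other Toll-like receptors differed from TLR3. TLR7, the receptor for single-stranded RNA (hg19 chrX:12885202-12908480, plus strand, 4989 bases of exon), read 43.5 and 40.9 CPM under vehicle and 45.3 and 39.2 CPM under TAK-981 in MM1S, and 34.5 and 35.6 against 36.7 and 36.8 CPM in MM1R. It was not called in either line, with a 95% confidence interval of -0.172 to 0.174 on the log2 scale in MM1S, where the sign depended on the scaling of the libraries. TLR9, the receptor for CpG DNA (hg19 chr3:52255096-52265247, minus strand, 4368 bases of exon), held 28 and 32 counts under vehicle and 41 and 39 under TAK-981 in MM1R, a log2 fold change of 0.73 (adjusted p = 0.019). That call was lost without the first MM1R vehicle library (0.64, adjusted p = 0.102), without the first MM1R TAK library (0.63, adjusted p = 0.112) and with DESeq2 (adjusted p = 0.115). In MM1S, with 13 and 17 against 14 and 22 counts, TLR9 was not called (0.34, 95% confidence interval -0.371 to 1.04), and the sign turned without the second TAK library (-0.019). The span of TLR9 overlaps TWF2 on the same strand in the table, so its counts are uncertain too.

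**Figure D3:**
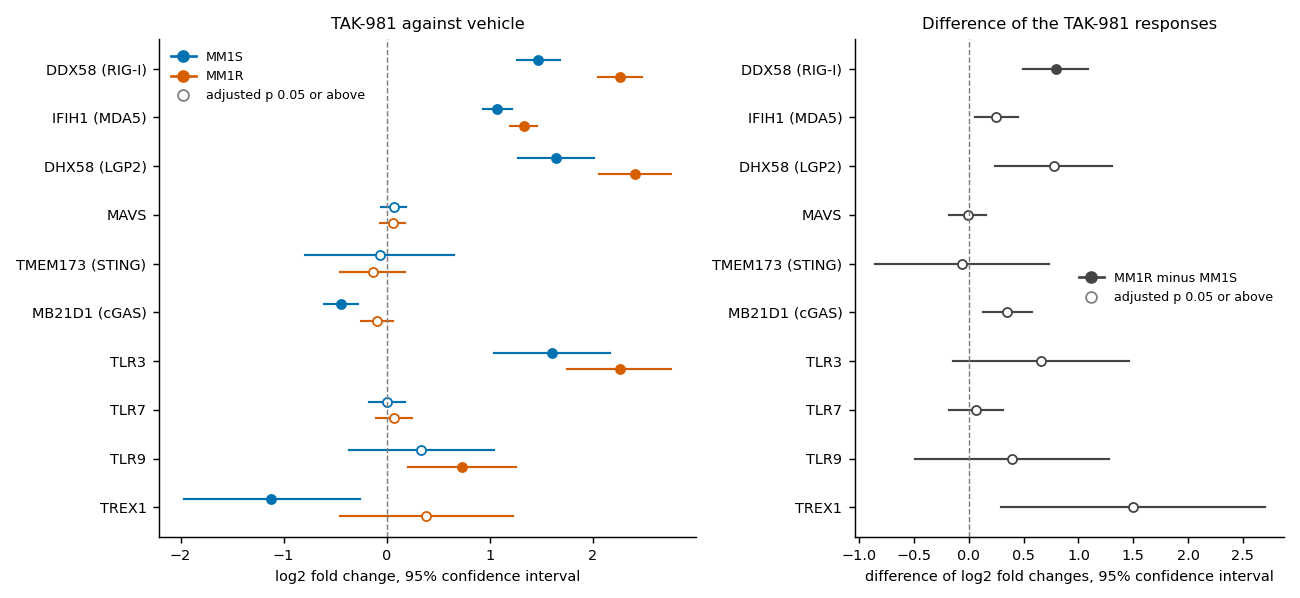
Log2 fold change of each gene after TAK-981 with its 95% confidence interval in MM1S (blue) and MM1R (orange), left, and the difference of the responses (MM1R minus MM1S), right. Filled points passed an adjusted p of 0.05 and open points did not. DDX58, IFIH1, DHX58 and TLR3 were filled to the right of 0 in both lines, and only DDX58 was filled in the right panel.

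Whether the response to TAK-981 differed between the lines was tested as an interaction. RIG-I was the member for which it did. The log2 fold change of DDX58 was larger in MM1R than in MM1S by 0.79 (SE 0.142, adjusted p = 0.00328), a ratio of 1.73 between the folds. That made 1 of the 10 genes called higher and 0 lower, where 3.19% of all tested genes were called higher and 0.978% lower. The other genes that rose in both lines had estimates on the same side that missed the threshold, at 0.78 for DHX58 (95% confidence interval 0.241 to 1.31, adjusted p = 0.0895), 0.66 for TLR3 (-0.147 to 1.46, adjusted p = 0.336) and 0.25 for IFIH1 (0.0568 to 0.446, adjusted p = 0.131). The difference for MB21D1 was 0.35 (0.126 to 0.579, adjusted p = 0.071) and that for TREX1 1.5 (0.297 to 2.7, adjusted p = 0.152). Without the first MM1S TAK library 4 genes were called, with DHX58 at 0.84 (adjusted p = 0.0384), IFIH1 at 0.32 (adjusted p = 0.0255) and TLR3 at 1.09 (adjusted p = 0.046) joining DDX58, and without the second MM1S TAK library MB21D1 joined it at 0.44 (adjusted p = 0.0239). Over all genes 592 were called, and 205 to 2329 when 1 library was left out, with the highest count without the first MM1S TAK library. The MM1S TAK libraries differed from each other by a chi-square of 21.4 per degree of freedom over genes, against 2.1 to 18.9 in the other groups.

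The comparison of dexamethasone with vehicle asked which of these genes respond to the glucocorticoid. In MM1S, TLR7 fell most, cGAS fell, and MDA5 and MAVS were slightly higher. TLR7 read 12.7 and 13.2 CPM under Dex, against 43.5 and 40.9 under vehicle, a log2 fold change of -1.70 (SE 0.0926, adjusted p = 6.9e-11), or 0.307 of the vehicle level. MB21D1 read 22.5 and 21.9 CPM, against 39.5 and 36.5, a log2 fold change of -0.78 (SE 0.0794, adjusted p = 2.71e-07). Neither gene's Dex and vehicle libraries overlapped.

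IFIH1 read 91.9 and 88.1 CPM under Dex in MM1S, a log2 fold change of 0.28 over vehicle (SE 0.0671, adjusted p = 0.00216). MAVS read 293 and 289 CPM, a log2 fold change of 0.30 (SE 0.057, adjusted p = 0.000288). TLR3 and TREX1 were also called lower, from counts of 8 and 11 for TLR3 (-1.11, adjusted p = 0.0316) and of 6 and 6 for TREX1 (-1.24, adjusted p = 0.0213) under Dex. The TLR3 call was lost on leaving out any of the 4 libraries compared, at adjusted p = 0.0704 and 0.123 without the first and the second vehicle library and 0.146 and 0.0599 without the first and the second Dex library, and in a fit of the MM1S libraries alone (adjusted p = 0.0555). The TREX1 call was lost without the first vehicle library (-0.99, adjusted p = 0.194), without the first Dex library (adjusted p = 0.073), without the second Dex library (adjusted p = 0.0929), with DESeq2 (adjusted p = 0.144), and with no filter on low counts (adjusted p = 0.0568). In all, 2 of the 10 genes were called higher and 4 lower in MM1S, where 20.8% of all tested genes were called higher and 21.5% lower.

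In MM1R, 0 of the 10 genes were called after Dex by edgeR's test, 0 passed an unadjusted p under 0.05 and DESeq2 called 0. The share called over all tested genes was 0% as well, with 395 at an unadjusted p under 0.05. TLR7 read 31.3 and 33.7 CPM under Dex, against 34.5 and 35.6 under vehicle, a log2 fold change of -0.11 (95% confidence interval -0.284 to 0.0638). MB21D1 read 44.6 and 44.3 CPM, against 41.3 and 41.0 (0.11, -0.0436 to 0.263). The interval for TLR7 excluded the fall measured in MM1S.

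The difference of the Dex responses was itself tested, and 4 of the 10 genes differed. TLR7 (1.59, SE 0.125, adjusted p = 2.47e-08) and MB21D1 (0.88, SE 0.108, adjusted p = 5.41e-06) had the higher value in MM1R, and IFIH1 (-0.34, SE 0.0944, adjusted p = 0.0115) and MAVS (-0.32, SE 0.0805, adjusted p = 0.00602) the lower. The shares called over all tested genes were 15% higher and 13.1% lower. The IFIH1 call was lost without the second MM1S vehicle library (-0.27, adjusted p = 0.0687) and without the second MM1R vehicle library (-0.32, adjusted p = 0.0507).

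**Figure D4:**
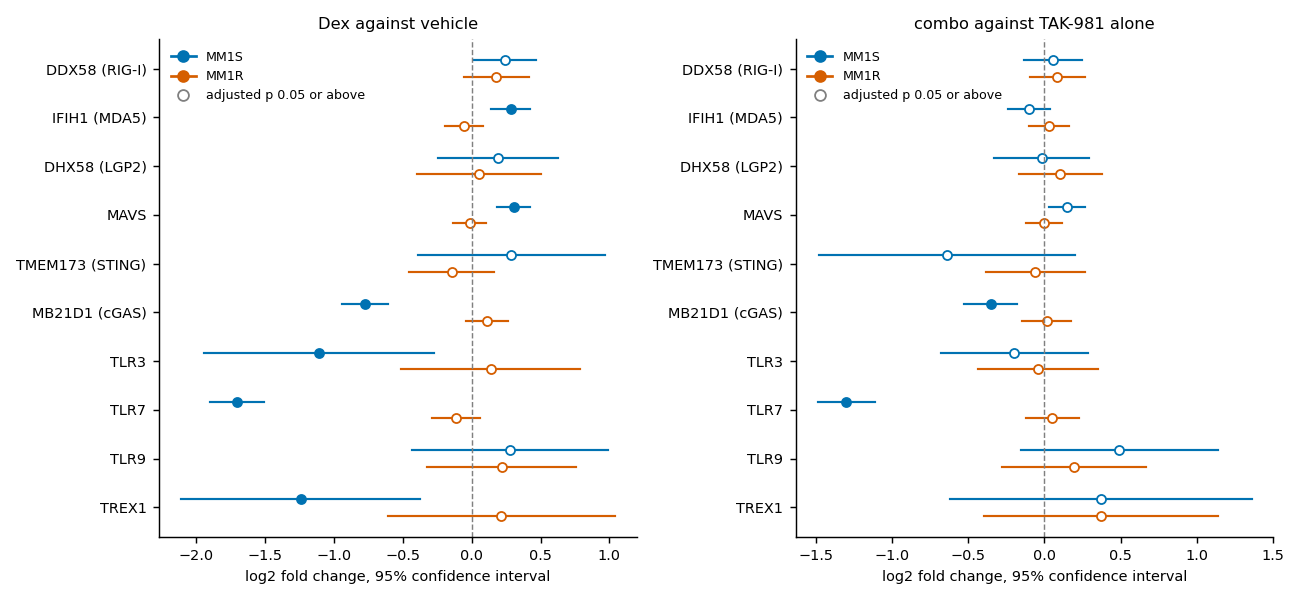
Log2 fold change of each gene with its 95% confidence interval for Dex against vehicle (left) and for combo against TAK-981 alone (right), MM1S in blue and MM1R in orange. Filled points passed an adjusted p of 0.05 and open points did not. TLR7 and MB21D1 were filled to the left of 0 in MM1S in both panels, and every MM1R point was open.

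Given together with Dex, TAK-981 was followed by the same 4 rises. In MM1S combo libraries DDX58 read 35.9 and 38.9 CPM, against 15.9 and 14.9 under Dex alone, IFIH1 read 142 and 148 against 91.9 and 88.1, and DHX58 read 9.29 and 7.86 against 3.68 and 2.67. TLR3 had 44 and 52 counts against 8 and 11. The log2 fold changes of combo over Dex were 1.28 (DDX58), 0.69 (IFIH1), 1.43 (DHX58) and 2.51 (TLR3), with adjusted p between 5.17e-09 and 6.41e-06. TLR7 was also higher, at 17.4 and 16.9 against 12.7 and 13.2 CPM (0.40, adjusted p = 0.00328). TMEM173 was called lower on 13 and 8 against 26 and 22 counts (-0.996, adjusted p = 0.0371), a call lost without the first Dex library (-0.85, adjusted p = 0.142), the second Dex library (-1.12, adjusted p = 0.0561) or the second combo library (-0.60, adjusted p = 0.295), and in a fit of the MM1S libraries alone (-0.97, adjusted p = 0.0905). These were 5 higher and 1 lower of the 10, where 22.2% of all tested genes were called higher and 25.4% lower.

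In MM1R combo libraries DDX58 read 48.6 and 49.2 CPM, against 11.1 and 10.7 under Dex alone. IFIH1 read 209 and 207 against 78.2 and 78.5, and DHX58 12.2 and 14.1 against 2.27 and 2.49. The log2 fold changes were 2.17 (DDX58), 1.41 (IFIH1), 2.46 (DHX58) and 2.08 (TLR3), and again no combo library overlapped a Dex library. Of the 10 genes 6 were called higher and 1 lower, where 23.1% of all tested genes were called higher and 25.3% lower. The 3 further calls were small or thin, at 0.23 for TLR7 (adjusted p = 0.0277), 0.70 for TLR9 (adjusted p = 0.018) and -0.19 for MB21D1 (adjusted p = 0.0407). DESeq2 called none of these 3 (adjusted p = 0.0649, 0.13 and 0.0707), and each was lost without the first MM1R Dex library (adjusted p = 0.173, 0.079 and 0.122) and without the first MM1R combo library (adjusted p = 0.29, 0.232 and 0.215). Without the second Dex library TLR9 (adjusted p = 0.0577) and MB21D1 (adjusted p = 0.109) were lost, and without the second combo library MB21D1 (adjusted p = 0.0731), which was also lost with no filter on low counts (adjusted p = 0.077).

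Set against TAK-981 alone, the combination differed in MM1S for TLR7 and MB21D1, 2 of the 4 genes called lower after Dex alone, and not for TLR3 (-0.20, adjusted p = 0.544) or TREX1 (0.37, adjusted p = 0.623). TLR7 stood at 17.4 and 16.9 CPM in the combo libraries against 45.3 and 39.2 in the TAK libraries (-1.30, SE 0.0911, adjusted p = 1.99e-09). MB21D1 stood at 21.3 and 22.3 against 26.2 and 29.5 CPM (-0.35, SE 0.0829, adjusted p = 0.00258). MAVS, at 264 and 282 against 236 and 257 CPM, missed the threshold (0.15, adjusted p = 0.0504). The counts were 0 of 10 higher and 2 lower, where 14.5% of all tested genes were called higher and 20.6% lower. In MM1R edgeR called 0 of the 10 genes, 0 passed an unadjusted p under 0.05 and DESeq2 called 0, where 0% of all tested genes were called and 214 passed an unadjusted p under 0.05.

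The sum of the single-drug effects on the log2 scale was compared with the combination in each line. In MM1S, IFIH1 was below that sum (-0.38, SE 0.0933, adjusted p = 0.0101), and MB21D1 (0.42, SE 0.115, adjusted p = 0.0198) and TLR7 (0.40, SE 0.131, adjusted p = 0.0463) were above it. For IFIH1, which each drug alone raised, combo and TAK-981 alone gave no call (-0.10, adjusted p = 0.251). For MB21D1, which each drug alone lowered, combo and Dex alone gave no call (-0.027, adjusted p = 0.816). The shares called over all tested genes were 5.47% higher and 9.48% lower, so that 36.6% of the calls were higher, and scaling by library size alone made that 53.2%. None of the 3 calls held in a fit of the 8 MM1S libraries alone (adjusted p = 0.132, 0.0785 and 0.11), and TLR7 was also lost with DESeq2 (adjusted p = 0.0622).

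The interaction calls also turned on single MM1S libraries. IFIH1 was lost without the second vehicle library (-0.31, adjusted p = 0.0604). MB21D1 was lost without the first vehicle library (0.36, adjusted p = 0.0951), the second Dex library (0.40, adjusted p = 0.0713) or the second combo library (0.39, adjusted p = 0.0662). TLR7 was lost on leaving out the first or second vehicle library (adjusted p = 0.154 and 0.065), the second TAK library (0.146), the first or second Dex library (0.081 and 0.0982) or the first or second combo library (0.14 and 0.0797). In MM1R edgeR called 0 of the 10 genes, 0 passed an unadjusted p under 0.05 and DESeq2 called 0, where 0% of all tested genes were called and 400 passed an unadjusted p under 0.05.

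Between the lines under vehicle, STING stood out. TMEM173 read 9.26 and 7.96 CPM in MM1R and 1.27 and 0.718 CPM in MM1S, a log2 difference of 3.09 (SE 0.217, adjusted p = 2.84e-09), or 8.53-fold. In each of the 4 treatments both MM1R libraries, at 7.43 to 9.26 CPM, lay above both MM1S libraries, at 0.44 to 1.35 CPM. DDX58 was lower in MM1R (-0.43, SE 0.111, adjusted p = 0.00353), as was TLR7 (-0.27, SE 0.0821, adjusted p = 0.0116). The DDX58 call was lost without the second MM1R vehicle library (-0.31, adjusted p = 0.0752) and the TLR7 call without the first MM1S vehicle library (-0.22, adjusted p = 0.102) or the first MM1R vehicle library (adjusted p = 0.0785). IFIH1 (0.14, adjusted p = 0.0955) was called without the first MM1S vehicle library (0.22, adjusted p = 0.0423). The 10 genes held 1 called higher in MM1R and 2 lower, where 25.6% of all tested genes were called higher and 22.6% lower. The main partners of STING and RIG-I differed little, with MB21D1 at 0.12 (95% confidence interval -0.0401 to 0.272) and MAVS at 0.0029 (-0.117 to 0.123).

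Over the 16 libraries, the genes whose log2 CPM followed each member most closely, by Pearson's r and as a description, are given next. The libraries share treatments and lines, so each r mostly restates which groups were high. DDX58 was followed by HERC6 (0.994), CD68 (0.988) and TDRD7 (0.988), IFIH1 by OAS2 (0.991), DDX60L (0.99) and OASL (0.987), DHX58 by MX1 (0.984), RSAD2 (0.983) and HERC6 (0.982), and TLR3 by SAMD9L (0.981), OAS1 (0.978) and LINC01021 (0.973). TLR7 was followed by SLC16A14 (0.98), PPFIA4 (0.967) and CLIC4 (0.966), MB21D1 by DDX12P (0.977), SQLE (0.975) and NEDD4L (0.972), MAVS by RHBDF2 (0.971), MNT (0.967) and ANKRD11 (0.966), and TMEM173 by DDX11 (0.981), CTAG2 (0.98) and UBA1 (0.979). For TLR9 and TREX1 the best values were lower, with TLR9 followed by LGALS9 (0.936) and TREX1 by CNTRL (0.8).

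The rest of the pathway was read from 7 lists that hold 133 genes. The lists were chosen with earlier results of these data known, so counts within them are a description and not a test. Other nucleic acid sensors were mostly higher after TAK-981, with 14 of 17 tested called higher and 1 lower in MM1S (median log2 fold change 0.73) and 14 higher and 2 lower in MM1R (median 1.22), beside medians of 0.037 and 0.0043 over all tested genes. The shares over all tested genes were 25.2% and 23.7% for MM1S and 25.8% and 27.6% for MM1R, in the same order. The same 14 genes were called higher in both lines, among them the oligoadenylate synthetases OAS1 (1.52 in MM1S and 2.03 in MM1R), OAS2 (1.39 and 1.76) and OAS3 (1.61 and 1.86), which activate RNase L on double-stranded RNA. IFIT3, of a family that binds viral RNA, went from 2.49 and 2.61 to 12.2 and 10.3 CPM in MM1S and from 2.32 and 1.94 to 34.6 and 26.3 CPM in MM1R. IFIT1 rose by 3.69 in MM1S and by 5.32 in MM1R on the log2 scale. HMGB1, a nuclear protein that binds DNA and is named here after its values were seen, was called lower in both (-0.65 and -0.49). For the difference between the lines 5 of 17 were called higher in MM1R, namely AIM2 (0.65), IFIT1 (1.62), IFIT3 (1.69), OAS1 (0.51) and OAS2 (0.37), and 0 lower.

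**Figure D5:**
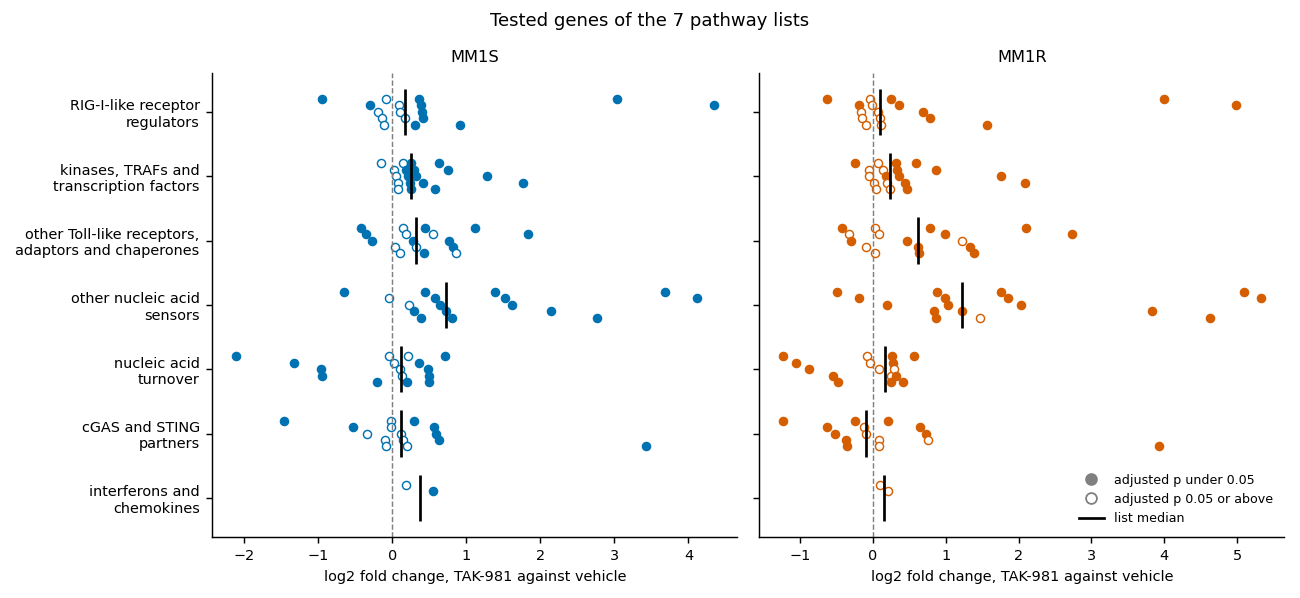
Log2 fold change after TAK-981 of every tested gene in the 7 pathway lists, MM1S left and MM1R right, with filled points past an adjusted p of 0.05, open points not past it, and a black bar at the list's median. Other nucleic acid sensors had the highest median in MM1R, 1.22, and in MM1S, 0.731. The lists were chosen with earlier results of these data known.

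Among the regulators of RIG-I-like receptors, 8 of 17 were called higher and 2 lower in MM1S (median 0.17), beside 25.2% and 23.7% of all tested genes, and 7 higher and 2 lower in MM1R (median 0.10), beside 25.8% and 27.6%. DDX60L, a helicase of the DDX60 family, went from 2.73 and 2.41 to 22.1 and 20.3 CPM in MM1S and from 3.22 and 2.97 to 54.5 and 44.0 CPM in MM1R. Its relative DDX60 rose by 4.34 and 4.99 on the log2 scale, and ZNFX1, a helicase that binds viral RNA and MAVS, by 0.91 and 1.56. TRIM25, the ubiquitin ligase of RIG-I, rose by 0.40 in MM1S and 0.68 in MM1R. Both lines had RNF125 (-0.95 and -0.63), a ligase that marks RIG-I for degradation, and PPP1CC (-0.30 and -0.19), a phosphatase that activates RIG-I, called lower, and both are named here after their values were seen.

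Of the kinases, TRAFs and transcription factors downstream of the adaptors, 13 of 19 were called higher and 0 lower in MM1S (median 0.26), beside 25.2% and 23.7% of all tested genes, and 10 higher and 1 lower in MM1R (median 0.24), beside 25.8% and 27.6%. The 2 lines shared 9 of those called higher. IRF7, the factor that amplifies interferon transcription, went from 16.7 and 16.1 to 55.3 and 56.2 CPM in MM1S and from 17.3 and 16.9 to 58.1 and 57.4 CPM in MM1R. IKBKE, an inducible kinase that activates IRF3 and IRF7, rose by 0.62 and 0.86 on the log2 scale, and IRF3 by 0.58 and 0.46. TBK1, the constitutive kinase of the same step, was not called (0.024 and 0.077) and is named here after its values were seen. TRAF6 was called higher in MM1R alone (0.45, beside 0.052 in MM1S), and the difference passed the test (0.40, adjusted p = 0.0438).

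Of the other Toll-like receptors, their adaptors and chaperones, 7 of 17 were called higher and 3 lower in MM1S (median 0.32), beside 25.2% and 23.7% of all tested genes, and 9 higher and 2 lower in MM1R (median 0.61), beside 25.8% and 27.6%. UNC93B1, which carries TLR3, TLR7 and TLR9 to endosomes, went from 141 and 141 to 240 and 257 CPM in MM1S and from 178 and 182 to 275 and 284 CPM in MM1R. TLR1, a surface receptor for lipopeptides, rose by 0.77 and 1.39 on the log2 scale and IRAK2, a kinase downstream of MYD88, by 1.11 and 0.99. In contrast, HSP90B1 and IRAK1 were called lower in both lines, and both are named here after their values were seen.

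Of 15 partners of cGAS and STING tested, 5 were called higher and 2 lower in MM1S (median 0.12), beside 25.2% and 23.7% of all tested genes, and 4 higher and 6 lower in MM1R (median -0.092), beside 25.8% and 27.6%. USP18, which removes ISG15 and holds back interferon signalling, rose from 6 and 7 counts to 73 and 62 in MM1S and from 5 and 13 to 127 and 94 in MM1R. SLC19A1, a folate carrier that also imports cyclic dinucleotides, fell from 41.7 and 42.8 to 14.3 and 16.2 CPM in MM1S and from 58.3 and 61.5 to 24.3 and 26.6 CPM in MM1R. TRIM56, a ligase that acts on cGAS and STING, rose by 0.59 and 0.65 on the log2 scale.

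Of 16 genes of nucleic acid turnover, 6 were called higher and 5 lower in each line (medians 0.12 and 0.17), beside 25.2% and 23.7% of all tested genes in MM1S and 25.8% and 27.6% in MM1R. ADAR, which edits adenosine in double-stranded RNA and was higher in both (0.50 and 0.56), contrasted with the subunits of RNase H2, which removes ribonucleotides from DNA. RNASEH2A went from 23.1 and 23.2 to 7.73 and 10.6 CPM in MM1S and from 32.7 and 34.0 to 16 and 16 CPM in MM1R. RNASEH2B (-0.96 and -0.55) and RNASEH2C (-0.20 and -0.48) were called lower in both lines too.

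The interferons themselves were barely counted. Of the 25 interferon and chemokine genes listed, 2 were tested, CXCL10 and CCL5. IFNB1 had at most 3 counts in any library and 13 over all 16. IFNA1, an alpha interferon gene, had 0 in every library, which allows up to 3 counts by the limit used here. Induction of these transcripts by TAK-981 was thus not detectable at this depth and at 48 h, and earlier times were not sampled. CXCL10, a chemokine induced by interferon, was higher after TAK-981 in MM1S, at 6.9 and 5.25 against 4.32 and 3.95 CPM (0.55, adjusted p = 0.0236), and was not called in MM1R, at 11.5 and 11.1 against 10.9 and 10.3 CPM (0.098, adjusted p = 0.606). After Dex in MM1S, CXCL10 fell to 0.518 and 0.706 CPM (-2.74, adjusted p = 8.16e-07) and CCL5, another chemokine and named here after its value was seen, fell as well (-1.80, adjusted p = 2.55e-08).

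After Dex in MM1S the counts in the other lists are read against 20.8% of all tested genes called higher and 21.5% lower. The other nucleic acid sensors had 5 called higher and 4 lower of 17 (median -0.074), and the regulators of RIG-I-like receptors 7 higher and 3 lower of 17 (median 0.12). The kinases, TRAFs and transcription factors had 9 higher and 2 lower of 19 (median 0.24), among them IRF7 (0.64, adjusted p = 2.84e-06). The other Toll-like receptors and their partners had 4 higher and 3 lower of 17, nucleic acid turnover 3 higher and 5 lower of 16, and the cGAS and STING partners 5 higher and 2 lower of 15. UNC93B1, the chaperone of TLR7, was higher (0.74, adjusted p = 2.96e-08) where TLR7 itself was lower. OAS1 fell (-0.51, adjusted p = 9.63e-05) while OAS2 rose (0.31, adjusted p = 0.00098). In MM1R edgeR called no gene of these lists after Dex, nor any other tested gene.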

How the data were processed

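RNA-seq was read from a table of gene counts that the authors deposited, with 16 libraries in 8 groups of 2. Per the submitters' processing notes the tools were bcl2fastq 2.18.0.12, STAR 2.6.0, HTSeq 0.6.0 and edgeR 3.28.1 on hg19. The strand setting of the counting was not given in the sources used here.

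Groups were taken from the labels. Genes were filtered with filterByExpr (minimum count 10, minimum total 15), which left 14215 of 23354, scaled by TMM and fitted over all 16 libraries with the robust quasi-likelihood F test of edgeR 4.0.16 in R 4.3.3 (limma 3.58.1). Each of 13 comparisons was adjusted by Benjamini-Hochberg over all tested genes at a threshold of 0.05. Several comparisons share a control group. Intervals are 95% and come from the fit. The code was tested on simulated data.

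CPM used TMM-scaled library sizes and, per kb, the exon length in the table. The 10 genes, the 7 pathway lists and the tests were chosen with earlier results of these data known. Pathway genes named were, in each list, up to 3 called genes with the smallest adjusted p after TAK-981 in each line, and those called for the difference between lines, and others are marked where they appear. Alternatives were RLE or library-size scaling, no low-count filter, a replicate block, DESeq2 1.42.0, a fit of 1 line, and each library left out. Promoters were read from RefSeq (GRCh38.p14), a build not mixed with the hg19 coordinates.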

Additional observations from a re-analysis of the deposited data

Results flagged for a closer look

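Among the 10 genes, the response to TAK-981 differed between the lines for DDX58 (MM1R minus MM1S 0.79 on the log2 scale, adjusted p = 0.00328). The response to Dex differed for IFIH1 (-0.34, adjusted p = 0.0115), MAVS (-0.32, adjusted p = 0.00602), MB21D1 (0.88, adjusted p = 5.41e-06) and TLR7 (1.59, adjusted p = 2.47e-08). In MM1S the combination differed from the sum of the single drugs for IFIH1 (-0.38), MB21D1 (0.42) and TLR7 (0.40). None of these calls against the sum held in an edgeR fit of the MM1S libraries alone (adjusted p = 0.132, 0.0785 and 0.11). Each also turned on single libraries, as did the IFIH1 call for Dex.

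Among the named pathway genes, the response to TAK-981 was higher in MM1R for AIM2 (0.65, adjusted p = 0.00678), DDX60L (0.95, adjusted p = 0.0234), IFIT1 (1.62, adjusted p = 0.0281), IFIT3 (1.69, adjusted p = 0.0012), OAS1 (0.51, adjusted p = 0.00941), OAS2 (0.37, adjusted p = 0.0255), TLR1 (0.62, adjusted p = 0.0337), TRAF6 (0.40, adjusted p = 0.0438), TRIM25 (0.28, adjusted p = 0.0446) and ZNFX1 (0.65, adjusted p = 0.000957). It was lower in MM1R for TOLLIP (-0.48, adjusted p = 0.0402), an adaptor that binds Toll-like receptors. Each was singled out because the difference between the lines, or from the sum, itself passed edgeR's test. The calls for pathway genes were not recomputed under the other settings or with a library left out. Over all genes, the number called for the difference in TAK-981 response shifted widely when a library was left out, as given above.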

How the results depend on the processing

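Of the log2 fold changes recomputed for the 10 genes, 352 kept direction and side of the threshold under another setting, 16 lost the call, 7 gained one and 9 changed sign. With 1 library left out, where the lone library is assumed to vary like the other groups, these numbers were 280, 40, 5 and 15. The cause was not tested. Genes not called in the main fit entered only for TAK-981 in each line, the lines under vehicle and the difference in TAK-981 response. In the other comparisons a gained call was therefore not counted.

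The number of the 10 genes called for combo against Dex in MM1R was 7, 4 with DESeq2, and 4 to 6 with 1 library left out. For the combination against the sum of single drugs in MM1S it was 3, 0 in a fit of MM1S alone, and 1 to 4 with 1 library left out. For the difference in the TAK-981 response it was 1, 2 by library size alone, 2 with no filter, 4 with the replicate block, and 1 to 4 with 1 library left out. Over all genes that last comparison called 592, 1313 with no filter and 2061 with the replicate block, and the combination against the sum in MM1S called 2125, 3579 with the block, 734 in a fit of MM1S alone and 1066 to 3759 with 1 library left out. With no filter, edgeR called 30 genes for Dex in MM1R, 9 for combo against TAK-981 in MM1R and 19 for the combination against the sum in MM1R. Each called 0 under the other settings, apart from 1 gene without the first MM1R Dex library for Dex and for the sum, and 1 without the first MM1R combo library for combo against TAK-981 and for the sum.

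The sign turned only for values near 0 or from few reads. TLR7 after TAK-981 in MM1S was -0.017 with RLE, -0.048 by library size alone, -0.0059 with no filter, -0.017 with DESeq2 and -0.032 in a fit of MM1S alone, and -0.11 to 0.10 with 1 library left out. For the difference in the TAK-981 response, MAVS was 0.0024 with RLE, 0.036 by library size alone and 0.0023 with DESeq2, and -0.073 to 0.055 with 1 library left out, TLR7 was -0.032 to 0.17 and TMEM173 -0.55 to 0.43. Between the lines under vehicle, MAVS was -0.061 by library size alone and -0.022 to 0.028 with 1 library left out, and TLR3 was -0.16 to 0.036. After TAK-981 in MM1S, TLR9 was -0.019 to 0.62 and TMEM173 -0.57 to 0.41.

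The deviations of libraries that share a replicate number correlated at 0.0162 to 0.263 in MM1S, highest for TAK with Dex, and at -0.0134 to 0.0821 in MM1R. The labels do not say whether the numbers pair the samples, and these correlations cannot settle it. The main fit used no replicate block. With the replicate block, DHX58 (0.77, adjusted p = 0.0381), IFIH1 (0.25, adjusted p = 0.0304) and MB21D1 (0.35, adjusted p = 0.0214) joined DDX58 for the difference in the TAK-981 response. The block was coded within each line, so its vehicle contrast between the lines compares the first replicates only. TLR9 was called there (0.95, adjusted p = 0.0253), beside 0.746 in the main fit, but this is not the same quantity. Low counts of TREX1, TLR9, TLR3 and, in MM1S, TMEM173 limit what these libraries can show for them.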
